A study of Mus musculus with 4 samples.

Results

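The mid-length autosomal regions of allelic methylation are the regions on numbered chromosomes, at least 50 and under 200 bp long (end minus start), in a list of places where the C57 and the Spretus allele differ in DNA methylation in mouse frontal cortex. The length and the chromosome alone chose them, and 200 of the 1613 listed regions met both conditions. All 200 had a methylation level for each allele, given as a fraction from 0 to 1. The animals were females aged 14 weeks with the strain label C57BL6J/Spretus, and the tissue was dissected prefrontal cortex. All of them carried a maternal-allele mutation of Xist, the noncoding RNA gene that silences an X chromosome, and no animals without it were compared. MethylC-seq (bisulfite sequencing of genomic DNA) and RNA-seq had 2 libraries each. Per the labels' protocols, tissue from a pair of individuals of different litters was pooled, and the MethylC-seq libraries were separate PCR reactions on the same ligated DNA. The list gives 1 level per allele and none per library, so the levels carry no replicate error, and the coverage behind them is unknown. The p-values of the RNA comparisons measure only the spread between the libraries, which may be technical.

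Mammalian DNA methylation sits mainly on cytosines followed by guanine (CG), and neurons add methylation at other cytosines after birth. An F1 hybrid carries one genome from each parent, so reads that cover a sequence difference can be assigned to a parent. A methylation difference between the alleles can follow the parent of origin, as at imprinted genes, where one parental copy carries a methylated control region, or it can follow the strain, where the sequences themselves differ. The labels give 1 cross and not its reverse, so an effect of strain cannot be told apart from one of parental origin, except at genes already known to be imprinted.

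The bases of a pair of these regions are shown because each lies at a gene start and they differ in direction, the first being more methylated on C57 and the second on Spretus. Both are from RefSeq (GRCm38.p6, the same assembly as mm10), 5′ to 3′ in the direction of the gene, with each CG in capitals. The Grb10 stretch is the part of its region before the annotated start (chr11:12027972-12028127, minus strand), and the Rubcnl stretch is the whole region (chr14:75015779-75015860, plus strand).
Grb10: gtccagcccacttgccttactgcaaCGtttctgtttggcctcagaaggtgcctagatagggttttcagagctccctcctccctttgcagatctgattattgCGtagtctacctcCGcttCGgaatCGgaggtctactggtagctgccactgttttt
Rubcnl: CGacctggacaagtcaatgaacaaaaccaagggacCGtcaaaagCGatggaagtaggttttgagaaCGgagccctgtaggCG
The Grb10 stretch held 5 CG in 156 bases, and its region had levels of 0.981 on C57 and 0.156 on Spretus. The Rubcnl stretch held 5 CG in 82 bases and had levels of 0.0294 on C57 and 0.945 on Spretus. The Rubcnl region began and ended on a CG. That held wherever it could be read: the first position of 63 listed regions of any length and the last position of 55 fell inside a RefSeq promoter window (250 bases before to 50 after a gene start), and 63 of 63 and 55 of 55 were bases of a CG when positions were counted from 1. The whole Grb10 window had 9 CG and the Rubcnl window 13, against a median of 7 (quartiles 3 and 20) over 32851 windows.

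The RNA libraries held 4768237 and 1291903 reads assigned to an allele. Neuron, astrocyte, oligodendrocyte and microglia markers were detected, with 4, 4, 3 and 3 of 4 genes each at an FPKM of at least 1 in both libraries, and endothelial and blood markers with 4 of 4. None of the 4 choroid plexus markers and none of the 4 olfactory bulb and cerebellum markers reached that level in both. FPKM values were mostly lower in library 2. The lowest among the oligodendrocyte and microglia markers were 0.820 and 0.876 there, against 7.60 and 6.83 in library 1. Xist, the mutated gene, drew 98.6% and 98.9% of its reads from Spretus in libraries 1 and 2, which places the mutated maternal copy on C57. C57 is therefore taken as the maternal allele.

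More of the mid-length autosomal regions were methylated on C57 than on Spretus, by a modest margin. Of the 200 regions, 118 (59.0%, exact Clopper-Pearson 95% interval 51.8 to 65.9%) were higher on C57 and 82 (41.0%) on Spretus (two-sided exact binomial test against equal numbers, p = 0.0131). The balance was far from that of the shorter autosomal regions, of which 409 of 445 (91.9%) were higher on C57, and far from that of X-linked regions of the same length, of which 16 of 120 (13.3%) were. By Fisher's exact test, two-sided and adjusted over the 3 comparisons made, the odds ratios were 0.127 (adjusted p = 3.09e-21) against the shorter regions and 9.35 (adjusted p = 1.89e-16) against the X-linked ones. All animals had Xist mutated on the maternal copy, taken as C57, so the direction of X-linked regions could be foreseen from the genotype. That comparison is therefore a description, and the part of X silencing in it was not tested. Autosomal regions of 200 bp or more, with 211 of 361 (58.4%) higher on C57, gave an odds ratio of 1.02 (adjusted p = 0.929), which does not show that the proportions are equal. Regions at the same locus are not independent, although these tests treat them as if they were. The p-values count listed regions of 1 pooled list, and they measure no spread between libraries or animals.

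**Figure D1:**
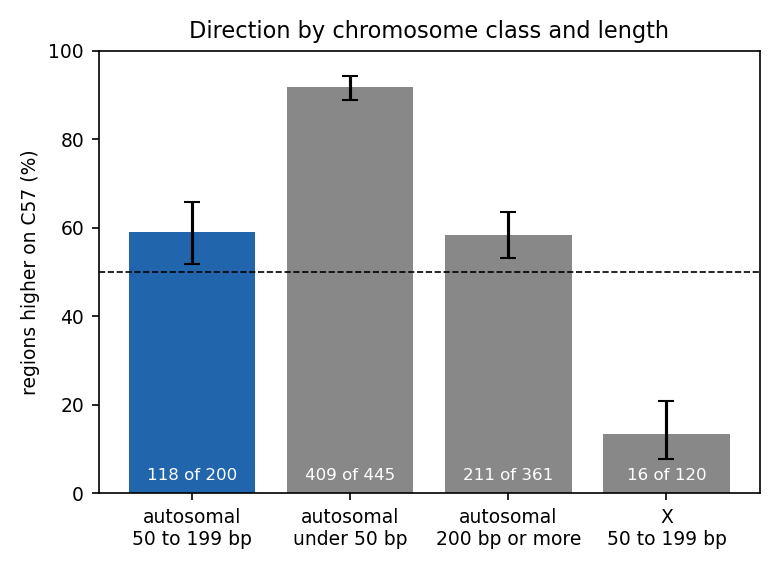
Bars give the percentage of listed regions with levels that were higher on the C57 allele, for autosomal regions of at least 50 and under 200 bp (blue) and 3 other classes (grey); error bars are exact 95% binomial intervals and the dashed line marks equal numbers. The mid-length autosomal bar stands at 59.0%, beside 58.4% for the longer autosomal regions, 91.9% for the shorter ones and 13.3% for X regions of the same length. All animals carried the maternal-allele mutation of Xist.

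Across the 19 autosomes the regions numbered from 5 to 23 per chromosome, with a median of 11. Regions higher on C57 were the more numerous on 12 chromosomes, those higher on Spretus on 4, and 3 had equal numbers. Chromosome 12 had 5 of 5 higher on C57 and chromosome 16 had 8 of 9, while chromosome 14 had 5 of 14. These counts are too small to separate chromosomes and were not tested.

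The share of regions higher on C57 was larger just under the lower bound than in any step within the range, on few regions. C57 was the more methylated allele in 60 of the 99 regions of 50 to under 100 bp (60.6%), in 30 of 45 from 100 to under 150 bp (66.7%) and in 28 of 56 from there to the upper bound (50.0%). Just outside the bounds, 18 of 22 autosomal regions of 40 to under 50 bp (81.8%, 95% interval 59.7 to 94.8%) and 26 of 42 of 200 to under 250 bp (61.9%) were higher on C57. The 95% intervals of the 3 steps within the range, 50.3 to 70.3%, 51.0 to 80.0% and 36.3 to 63.7%, overlap one another and the one below the bound. Both directions occurred on either side of the lower bound. Just under it, a region of 49 bp on chromosome 6 stood at 0.977 on C57 and 0 on Spretus, and another of 49 bp on chromosome 15 stood at 0 and 0.774. Of the 4 members tied as the shortest at 51 bp, the one on chromosome 18 was higher on C57, at 0.952 and 0.325. The other three were higher on Spretus, at 0 and 0.860 in Plekha5 on chromosome 6, at 0.272 and 0.913 in Epb4.1l5 on chromosome 1 and at 0 and 0.650 outside gene loci on chromosome 14. At the upper bound a member of 197 bp at Nipsnap3a stood at 0.214 and 0.886, and a region of 201 bp on chromosome 14 at 0.231 and 0.840.

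**Figure D2:**
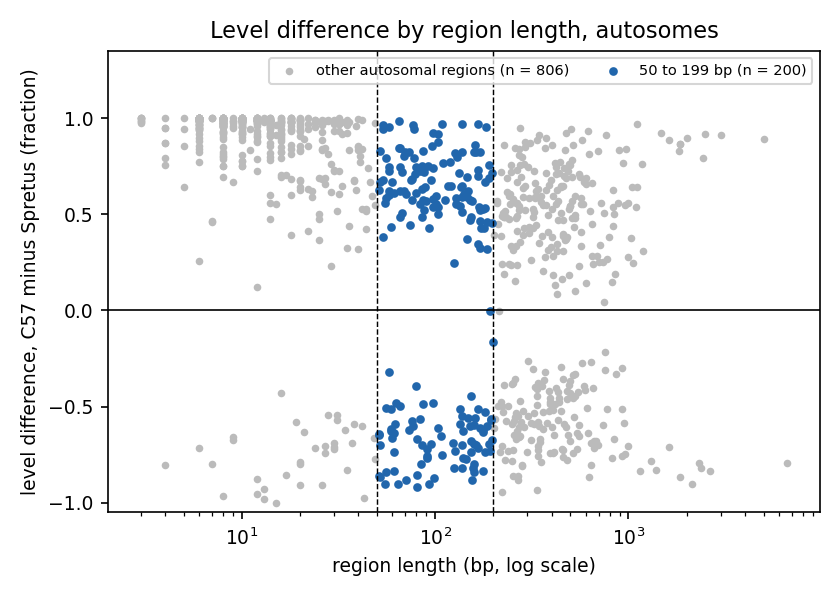
Each point is 1 autosomal region with levels, placed by its length (log axis, bp) and its level on C57 minus its level on Spretus; blue points are the 200 mid-length regions, between the dashed bounds, and grey points are the other autosomal regions. Shorter regions crowd near a difference of 1 toward C57, while between the bounds points lie on both sides of 0, with 118 above and 82 below.

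Most of the mid-length regions set a nearly full level on one allele against a low one on the other. The regions had to differ between the alleles to be listed, so their levels are a description. In the 118 regions higher on C57 the median level was 0.912 on C57 (quartiles 0.846 and 0.944) and 0.20 on Spretus (0.0785 and 0.335). In the 82 regions higher on Spretus it was 0.850 on Spretus (0.757 and 0.905) and 0.134 on C57 (0.0545 and 0.221). The medians thus nearly mirrored each other, with a somewhat higher upper and a higher lower level where C57 was the methylated allele. The median difference was 0.657, and 173 of the 200 regions (86.5%) differed by at least 0.5, against 229 of 361 longer (63.4%) and 430 of 445 shorter autosomal regions (96.6%).

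A level of exactly 0 on the lower allele set the length classes apart. It was found in 29 of the 200 mid-length regions (14.5%), of which 18 had 0 on Spretus and 11 had 0 on C57. In the shorter autosomal regions it was found in 73.0%, with 314 at 0 on Spretus and 11 at 0 on C57, and in the longer ones in 6.65%. Within the mid-length range the share went from 18.2% at 50 to under 100 bp to 13.3% at 100 to under 150 bp and 8.93% above that. The number of cytosines behind a level is not given, and whether length, coverage or a base change in Spretus moves this share was not tested. A level of exactly 1 was listed for 2 of the regions on C57 and for 1 on Spretus.

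At the other end, 2 regions differed by less than 0.2. A region of 192 bp in Mark1, which encodes a kinase of microtubule-associated proteins (chromosome 1, 184898811 to 184899003), was listed at 0.870 on C57 and 0.873 on Spretus, a difference of 0.00350. The list gives no other value for it. The other was the longest of the 200, 198 bp at 3192756 to 3192954 on chromosome 11, with 0.457 on C57 and 0.620 on Spretus.

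**Figure D3:**
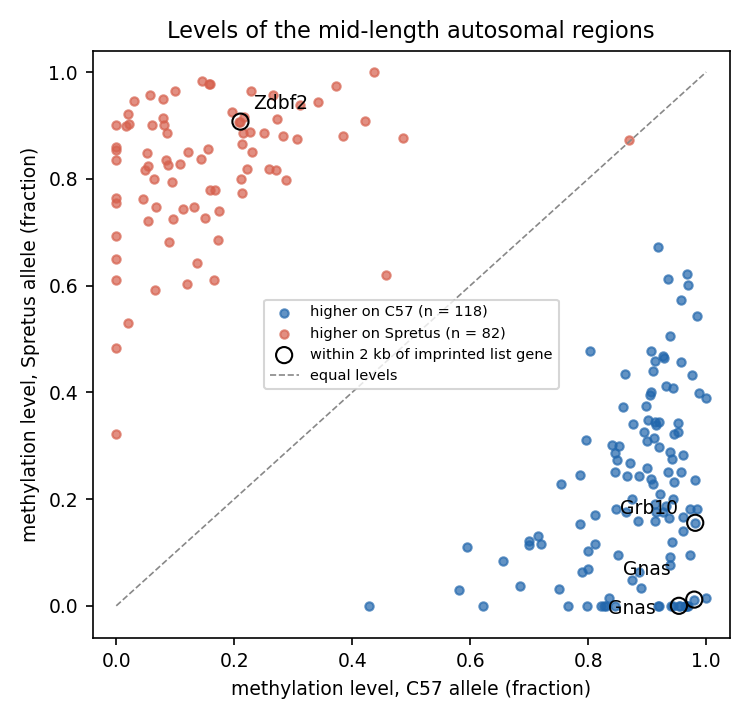
Each point is 1 of the 200 mid-length autosomal regions, placed by its methylation level on the C57 (x axis) and the Spretus allele (y axis), both as fractions; blue points were higher on C57 (n = 118), red points on Spretus (n = 82), circles mark regions within 2 kb of an imprinted list gene, and the dashed line marks equal levels. Points gather in opposite corners, with 1 point on the line near 0.870, the region in Mark1.

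Most of the regions with the largest differences toward C57 lay outside the gene loci of the RNA tables. The 5 leading ones were a 65 bp region on chromosome 12 at 18353651 (1.00 on C57 and 0.0149 on Spretus), a 167 bp region on chromosome 1 at 134057087 (0.969 and 0), the Gnas region at 174328355 described below, a 108 bp region on chromosome 4 at 97341908 (0.968 and 0) and a 77 bp region on chromosome 15 at 47085747 (0.966 and 0). The chromosome 12, 4 and 15 regions lay 135894, 158742 and 141299 bp from the nearest start or end of such a locus, and the chromosome 1 region lay 8810 bp from Fmod, which encodes the collagen-binding protein fibromodulin. RefSeq starts were nearer to the chromosome 12 region, at 33775 bp, and to the chromosome 1 region, at 3693 bp.

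Toward Spretus, 4 of the 5 largest differences lay within a locus or within 1 kb of one. The region of 81 bp upstream of Rubcnl, an autophagy gene that the RNA tables list as 5031414D18Rik, led with 0.0294 on C57 and 0.945 on Spretus, and ended 167 bp before the gene. That gene had 24 C57 and 30 Spretus reads in library 1 and 5 and 3 in library 2, too few in library 2 for the test. A region of 55 bp on chromosome 8 at 54503397 (0.0196 and 0.921) lay 16981 bp from Spcs3, and a 64 bp region inside Limch1 on chromosome 5 at 67016487 stood at 0 and 0.901. Limch1 had 669 C57 and 608 Spretus reads in library 1 and 163 and 146 in library 2, close to equal in each. The remaining pair, on chromosome 17, lay 156 bp from Gm5814 (0.0566 and 0.957) and 46 bp from Gm6633 inside Gm20546 (0.0157 and 0.898). All 24 allele-assigned reads of Gm5814 in library 1 and all 5 in library 2 came from Spretus, the more methylated allele there. With 5 reads in library 2 the gene was not tested, and the exact 95% lower limits of its Spretus share were 85.8% and 47.8%. Gm6633 had no reads in either library.

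Close to as many of the regions lay inside gene loci as outside them, by the loci of the RNA tables. Of the 200, 98 (49%, exact 95% interval 41.9 to 56.1%) overlapped a locus, against 49.9% of the shorter and 49% of the longer autosomal regions and 69.2% of the X regions of the same length. Regions higher on Spretus overlapped a locus in 44 of 82 cases (53.7%), those higher on C57 in 54 of 118 (45.8%), and the 95% intervals of these shares, 42.3 to 64.7% and 36.6 to 55.2%, overlap. The locus of a gene with an FPKM of at least 1 in both libraries was met by 46 regions (23.0%). FPKM values were mostly lower in library 2, so this limit was stricter there. Some regions met more than 1 locus, so 106 genes were overlapped, and 91 of them matched a RefSeq symbol, 80 as protein-coding genes, 9 as long noncoding RNAs and 2 as pseudogenes. Exons and introns were not analysed here.

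Gene ends were seldom close. The median distance to the nearest start or end of a gene locus was 8129.5 bp (quartiles 1973 and 22316), between 6910 bp for longer and 17733 bp for shorter autosomal regions, and 1195.5 bp for X regions of the same length. Of the 200 regions, 36 (18%) lay within 1 kb of a gene end, 72 between 1 and 10 kb and 92 (46.0%) farther away, 13 of these beyond 100 kb. Those higher on Spretus had a median distance of 5913.5 bp and 19 of 82 (23.2%) within 1 kb, and those higher on C57 10045.5 bp and 17 of 118 (14.4%). These distances were not tested. Against RefSeq starts, 23 of the 195 regions that could be compared (11.8%) lay within 1 kb of one. A RefSeq promoter window was met by 3 of the 195 (1.54%), the regions at Grb10, Rubcnl and Nipsnap3a, against 26 of 340 longer autosomal regions (7.65%), 2 of 430 shorter ones (0.465%) and 12 of 120 X regions of the same length (10.0%).

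**Figure D4:**
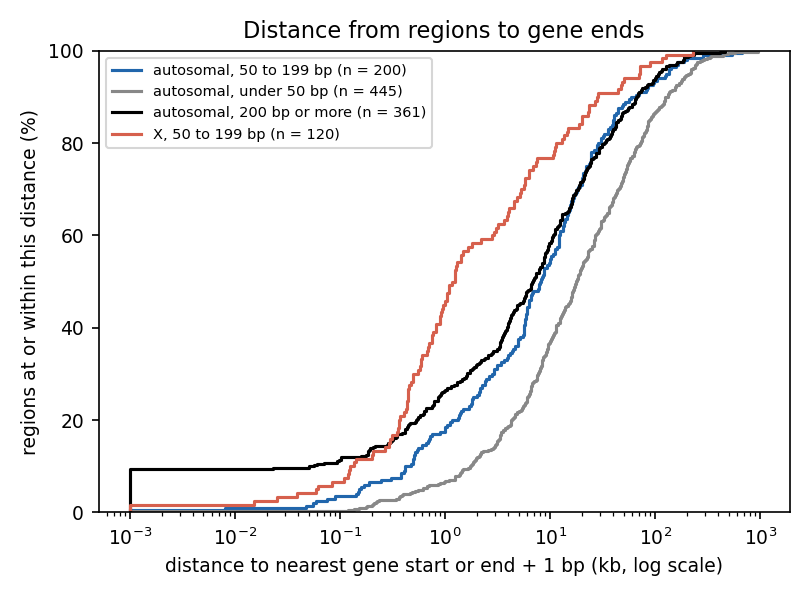
Lines give the cumulative percentage of regions at or within a distance of the nearest start or end of a gene locus (log axis, kb, 1 bp added), for the mid-length autosomal regions (blue), those under 50 bp (grey) and 200 bp or more (black), and for X regions of the mid length (red). The blue line runs between the grey and black lines below 1 kb, where it reaches 18%, and the red line reaches 45.8% there.

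Few of the regions stood beside a longer one. The median distance to the nearest autosomal region of 200 bp or more was 2.12 Mb, and 11 of the 200 (5.50%, exact 95% interval 2.78 to 9.63%) had one within 10 kb, against 0.875% of the 457 shorter and 9.14% of the 361 longer regions. In 9 of the 11 pairs both regions were higher on the same allele, and 2 pairs were opposed. Within 1 Mb, where 56 regions had a longer neighbour, 28 pairs matched in direction and 28 did not. Of the 11, 4 were higher on C57 and 7 on Spretus, and 4 lay at imprinted list genes.

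Outside the imprinted loci the closest neighbours were on chromosome 11, in the overlapping loci of Sfi1, which encodes a centrosomal protein, and Drg1, which encodes a GTP-binding protein. The members there, 53 bp apart, went opposite ways. The region at 3192756 to 3192954 was higher on Spretus (0.457 on C57 and 0.620 on Spretus), and the one at 3193007 to 3193083 was higher on C57 (0.656 and 0.0833), like a 428 bp region 345 bp farther on (0.829 and 0.203). On chromosome 17 the region beside Gm5814 (0.0566 and 0.957) lay 1334 bp from an 865 bp region with the same direction and a smaller difference (0.529 and 0.859). The region in Gm20546 (0.0157 and 0.898) lay 7639 bp from a 322 bp region of the opposite direction (0.861 and 0.375). Regions in Ttc28 on chromosome 5 (0.270 and 0.817) and in Wt1os on chromosome 2 (0.0886 and 0.681) lay 3149 and 5771 bp from longer regions that were likewise higher on Spretus.

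Known imprinted genes held 4 of the 11 regions beside a longer one. Of the 200 regions, 4 (2.00%) lay within 2 kb of a gene of the imprinted lists, against 37 of 361 longer autosomal regions (10.2%) and 5 of 445 shorter ones (1.12%). They lay in Grb10, in Zdbf2 and, as a pair, in Gnas. In each of them the nearest longer region was higher on the same allele.

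Grb10 encodes an adaptor protein that restrains growth factor signalling, and it is known for maternal expression in most tissues and paternal expression in neurons. Its region of 158 bp (chromosome 11, 12027969 to 12028127; gene locus 11930508 to 12038683) spans a RefSeq start of the gene, the sequence shown above. It had 0.981 on the maternal C57 and 0.156 on the paternal Spretus allele, and a 516 bp region 2276 bp away had 0.904 and 0.0423. Grb10 had 43 C57 and 257 Spretus reads in library 1 and 9 and 57 in library 2, so that 85.7% and 86.4% of reads came from the less methylated allele. Both libraries lay far on the Spretus side, with a log2 ratio of Spretus over C57 of 2.70 (SE 0.22, adjusted p = 3.99e-06) by the quasi-likelihood test of edgeR, with Benjamini-Hochberg adjustment over all genes tested.

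Zdbf2, a zinc finger gene known for paternal expression, held a region of 158 bp (chromosome 1, 63279339 to 63279497; gene locus 63273265 to 63314576) with 0.211 on C57 and 0.907 on Spretus. A 1307 bp region 921 bp away had 0.0549 and 0.838. The gene had 9 C57 and 205 Spretus reads in library 1 (95.8% Spretus) and 8 and 65 in library 2 (89.0%), so here most reads came from the more methylated allele. Its log2 ratio was 4.10 (SE 0.38, adjusted p = 1.04e-05 in the same edgeR test), 4.61 from library 1 alone and 3.13 from library 2 alone.

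Gnas encodes the stimulatory G protein subunit alpha and its locus makes several transcripts, some from one parental allele. A region of 58 bp (chromosome 2, 174300567 to 174300625) had 0.954 on C57 and 0 on Spretus, and one of 137 bp (174328355 to 174328492) had 0.980 and 0.0116. Longer regions 3041 and 754 bp away had 0.910 and 0, and 0.936 and 0.175. Gene-level reads did not share this one-sidedness. Gnas had 180 C57 and 196 Spretus reads in library 1 (52.1%) and 99 and 90 in library 2 (47.6%), with a log2 ratio of 0.10 (SE 0.35, adjusted p = 0.939 in the edgeR test). Its locus overlaps 5 others, 1 of them (Gm20721) at an FPKM of 339 and 59.5 with no allele-assigned read, so these reads cannot be split by transcript.

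A region near Cdkn1c, an imprinted list gene just outside the 2 kb limit, is named after its values were seen. Cdkn1c encodes a cell cycle inhibitor known for maternal expression. The region of 154 bp (chromosome 7, 143463825 to 143463979) lay 2775 bp from the gene and 3164 bp from a 541 bp region, and had 0.0667 on C57 and 0.748 on Spretus beside 0.00909 and 0.648 in the longer one. All 25 reads of Cdkn1c in library 1 and all 5 in library 2 came from C57, too few for the test.

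Genes overlapped by the regions drew mostly on both alleles. Of the 106 genes, 25 had no allele-assigned read, 61 had at least 10 in each library and were tested, and 52 had at least 20 in each. The median Spretus share of those 52, over the reads of both libraries, was 48.8% (quartiles 46.2 and 50.9%), against 48.1% (44.7 and 51.0%) for 9737 autosomal genes with that depth. It was 48.5% in library 1 and 47.9% in library 2. Genes under a C57-higher region (28 genes) had a median of 49% (quartiles 46.4 and 50.7%), and those under a Spretus-higher one (23 genes) had 47.6% (45.7 and 52.4%), so the medians lay closer together than the quartiles of either group. The remaining gene, Drg1, lay under both. Of the 52 genes, 47 (90.4%) had a share from 40 to 60%, as did 88.4% of the autosomal genes.

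**Figure D5:**
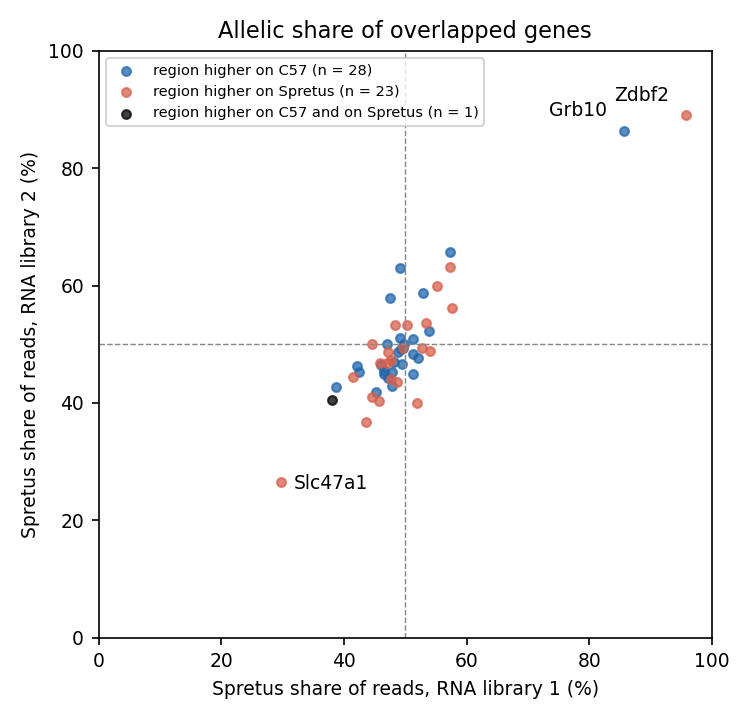
Each point is 1 of 52 genes overlapped by a mid-length autosomal region with 20 or more reads given to an allele in both libraries, placed by its Spretus share of reads in RNA library 1 (x axis) and library 2 (y axis), both in %; blue marks genes under regions higher on C57, red those higher on Spretus and black 1 gene under both. Most points gather near 50%, with Grb10 and Zdbf2 above 85.0% in both libraries and Slc47a1 below 30.0%.

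The edgeR test called 6 of the 61 tested genes (9.84%) at an adjusted p under 0.05, against a background of 5.43% of 11584 autosomal genes. Of the 6, 5 were called toward Spretus (background 2.39%) and 1 toward C57 (background 3.04%). With a library block, edgeR called 17 of the 61 (27.9%) against a background of 22.5%, 11 of them toward Spretus (background 11.1%) and 6 toward C57 (background 11.3%). DESeq2 called 2, Grb10 and Zdbf2 (3.28%), both toward Spretus, against a background of 2.2% (1.05% toward Spretus and 1.15% toward C57). With 1 library total shared by its alleles, edgeR called 5 (8.20%), 4 toward Spretus and 1 toward C57, against a background of 6.38% (1.86% and 4.52%). Without the 3 imprinted list genes, 4 of 58 (6.90%) were called by edgeR with allele as the only term, a share near the background. The median log2 ratio was 0.10 for the 61 genes and 0.02 for all autosomal genes tested.

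The called genes outside the imprinted lists had low read counts. Sfrp4, which encodes a secreted antagonist of Wnt signalling (chromosome 13, 19623175 to 19632821), had 23 C57 and 56 Spretus reads in library 1 and 2 and 11 in library 2. Its log2 ratio was 1.55 (SE 0.36, edgeR adjusted p = 0.0184), or 1.44 from library 1 alone and 2.38 from library 2 alone, and its region of 58 bp stood at 0.912 on C57 and 0.314 on Spretus. Mroh5 (chromosome 15, 73761410 to 73839699) had 16 and 39 reads in library 1 and 4 and 9 in library 2, with a log2 ratio of 1.38 (SE 0.33, edgeR adjusted p = 0.0203), under a region at 0.849 and 0.273. For Sfrp4 and Mroh5 alike, each library had more reads from Spretus, the less methylated allele. Their reads fell short of 20 in library 2. The Mroh5 locus overlaps Gm3244, with no allele-assigned read, and Gm6569, with 2.

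Slc47a1, which encodes a transporter that exports organic cations (chromosome 11, 61343401 to 61378345), was the 1 gene called toward C57. It had 78 C57 and 33 Spretus reads in library 1 (29.7% Spretus) and 25 and 9 in library 2 (26.5%), with a log2 ratio of -1.19 (SE 0.30, edgeR adjusted p = 0.0299). Its region of 61 bp stood at 0.0794 on C57 and 0.914 on Spretus, and the less methylated allele gave more reads. Zwilch, which encodes a kinetochore protein of cell division (chromosome 9, 64137144 to 64173104), had 18 and 48 reads in library 1 and 8 and 11 in library 2. Its log2 ratio was 1.27 (SE 0.34, edgeR adjusted p = 0.0406) under a region at 0.229 on C57 and 0.966 on Spretus, with more reads from the more methylated allele. Its locus overlaps Lctl, which had 1 read per allele in each library. Zwilch was not called under the shared library total (edgeR adjusted p = 0.0633), and its log2 ratio was 1.57 from library 1 alone and 0.62 from library 2 alone.

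Over the 6 called genes, 4 had more reads from the less methylated allele (Grb10, Sfrp4, Mroh5 and Slc47a1) and 2 from the more methylated one (Zdbf2 and Zwilch). Grb10 and Zdbf2 are on the imprinted lists. Without imprinted list genes, 4 of 58 (6.90%) were called, near the background of 5.43%. No background was computed for a match of direction, so the counts in either fit are a description. With the library block, of the 16 called genes under regions of a single direction, 8 had more reads from the less and 8 from the more methylated allele. Drg1, under the opposed pair of regions, was the remaining one, with 146 C57 and 90 Spretus reads in library 1 and 44 and 30 in library 2 (edgeR with the block, adjusted p = 0.00839). Its locus overlaps Sfi1, and the kit keeps strand, but the sources used here do not give whether the counting did.

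The overlapped genes with the most reads were near balance, while the levels of their regions differed between the alleles. They were Akap6, which encodes an anchoring protein for protein kinase A, Lsamp, a neuronal cell adhesion gene, Anks1b, a postsynaptic protein gene, Ppp3ca, which encodes the catalytic subunit of calcineurin, and Ahi1, a ciliary protein gene. Akap6 had 49.2% and 51.0% Spretus reads in libraries 1 and 2 under a region of 137 bp at 0.684 on C57 and 0.0370 on Spretus. Lsamp had 49.5% and 46.6% under a region of 161 bp at 0.938 and 0.0769. Anks1b had 47.2% and 44.3%, Ppp3ca 49.4% and 49.2% and Ahi1 48.6% and 43.6%. The nearest RefSeq start was from 13629 bp (Ahi1 region) to 211871 bp (Akap6 region) away, so none of these regions lay at a gene start. The Akap6, Lsamp, Anks1b and Ppp3ca regions were higher on C57, and the Ahi1 region, at 0.0952 and 0.794, was higher on Spretus. None of the 5 was called by edgeR with allele as the only term (adjusted p from 0.885 to 1.00), and Akap6 was called with the block (log2 ratio 0.11, adjusted p = 0.0360).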

How the data were processed

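Per the file headers, the authors deposited raw counts of reads assigned to each allele and FPKM per gene for 2 RNA-seq libraries, and a list of regions with the methylation of each allele as a fraction. The submitters' processing notes name the build mm10 and, with no roles, bedtools 2.2.4, HTSeq 0.6.0, Cufflinks 2.1.1 and TopHat2 2.0.9. For the region list, thresholds, cytosine context, coverage and pooling were not given in the sources. The 13 listed regions without levels took no direction; none was a member. Members and lists were chosen with earlier results of these data known.

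Counts for 46320 gene identifiers were tested with edgeR 4.0.16 (glmQLFit and glmQLFTest, R 4.3.3) on the C57 and Spretus columns of both libraries, with TMM scaling, allele alone as the term, at least 10 reads in each library and Benjamini-Hochberg adjustment over all genes tested. The test was tested on simulated data. Those counts were drawn with no deviation shared by the alleles of a library, unlike the counts here. Log2 ratios are Spretus over C57. Both alleles of 1 library share an RNA sample, so libraries pair them by design. Their deviations had a correlation of 0.600 over 7559 genes. Fits without the library as a block leave this pairing out, so their SEs and adjusted p-values take in deviations that the alleles of a library share. Alternatives were the library as a block, DESeq2 1.42.0 (without it), other filters and scaling. Region positions are given as listed and count from 1. Intervals are exact Clopper-Pearson and cover counting error only. Imprinted list genes tested numbered 19 on the maternal list, with 9 called toward C57 and 1 (Grb10) toward Spretus, and 24 on the paternal list, with 2 and 19. Named were regions within 2 kb of imprinted list genes, the 5 of largest difference each way, the 5 nearest a longer region and the shortest and longest, and genes that were called, imprinted or among the 5 with most reads. Of promoters near regions, only bases inside a region are printed.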

Additional observations from a re-analysis of the deposited data

How the results depend on the processing

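The excess of regions higher on C57 kept its direction and its side of the threshold under 7 alternatives, from 57.8% with a level difference of at least 0.5 (exact binomial p = 0.0478) to 64.4% at 75 to under 150 bp; the alternative with both levels above 0 was chosen after seeing the data (58.5%). The comparisons with other length classes and the median level difference also kept theirs. Loci of genes with an FPKM of at least 1 in each library were overlapped by 23.0% of regions, against 49% for all loci, and a window of 2 kb held a longer region for 2.50%, against 5.50% within 10 kb; both follow from the narrower definition. The count of called overlapped genes, 6 (9.84%, background 5.43% of autosomal genes), became 17 with edgeR and the replicate block (27.9%, background 22.5%). It became 2 with DESeq2 (3.28%, background 2.2%). With at least 20 reads in each library it was 3 of 52, where fewer genes were tested. No background was computed for that filter, so the 3 cannot be read as a drop. The background rose with the block and fell with DESeq2, as the count did. The cause of these changes was not tested. Sfrp4, Mroh5, Slc47a1 and Zwilch were not called by DESeq2 (adjusted p from 0.226 to 0.727). The median Spretus share of overlapped genes, 48.8%, was 49.3% with at least 10 reads in each library and 47.8% with at least 50, and ran from 47.9% to 48.5% with a library left out. A test without a library could not be fitted, since it leaves no residual degrees of freedom. Read depth of library 2 limits the shares of weakly expressed genes, and no depth is known for the levels.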

Other observations

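Genes beside the regions rather than under them were also measured. A further 24 genes had a start or end within 1 kb of a mid-length autosomal region without overlapping one, and 10 of them had enough reads for the test. Their Spretus shares, over the reads of both libraries, ran from 42.3% to 51.7%. edgeR called 0 of the 10 with allele as the only term, against 5.43% of all autosomal genes tested, and 0 with the library block, against 22.5%. DESeq2 called 0, against 2.2%. In DESeq2 and in edgeR with allele as the only term, 0 had an unadjusted p under 0.05. With 10 genes tested, a count of 0 is near these backgrounds for the unblocked fits and is no result about these genes. The nearest of them, Trim46, a gene of the neuronal axon, lay 54 bp from a region at 0.886 on C57 and 0.0625 on Spretus and had 186 C57 and 189 Spretus reads in library 1 and 39 and 27 in library 2. Krit1, which encodes a protein known from vascular malformations, lay 88 bp from a region at 0.812 and 0.116 and had 449 and 343 reads in library 1 and 111 and 100 in library 2. Among the 14 genes with too few reads for the test, 3 had at least 10 reads in library 1 and none from C57 in either library. They were chosen after their values were seen. Besides Gm5814, these were Gm1305, with 21 and 2 Spretus reads in libraries 1 and 2, and Pnp2, with 10 and 1. The regions beside Gm1305 (0.864 on C57 and 0.175 on Spretus) and Pnp2 (0.874 and 0.0476) were higher on C57, and the one beside Gm5814 was higher on Spretus. The Pnp2 locus lies inside that of Pnp, which the same region overlaps. Pnp had 77 C57 and 81 Spretus reads in library 1 and 15 and 14 in library 2. How many low-read autosomal genes are as one-sided was not counted. Whether mapping differences between the strain sequences bear on Gm5814, Gm1305 and Pnp2 was not tested.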
